A study of Mus musculus with 6 samples.

Results

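Histone genes were examined in subcutaneous KLN205 tumours of mice given an antibody against PD-1 and in control tumours. They were all transcript clusters of the array whose gene symbol began with Hist1h, Hist2h, Hist3h or Hist4h (replication-dependent histones) or with H2af or H3f (replacement histones). The rule found 78 of 22206 clusters, 66 of them replication-dependent and 12 replacement. A transcript cluster is the set of probes the array reads for a gene, and 7 of the 66 replication-dependent clusters carried several gene names. The copies of a histone type are nearly identical in sequence, and 4 sets of clusters held the same 6 signals to the last digit given, so that the 78 clusters held 74 distinct rows of signals. The signal of a single copy is therefore uncertain throughout. The authors' deposited table calls 75 of the 78 expressed in both groups.

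KLN205 is a line of mouse lung squamous cell carcinoma. In both groups 1000000 cells were mixed into 50 µL of medium and 100 µL of Matrigel, a basement membrane gel, and placed under the skin of the flank, and 250 µg of antibody was given into the peritoneum at intervals of 3 days. The 3 anti-PD-1 tumours (replicates 1, 2 and 3) received the antibody against PD-1, an inhibitory receptor of T cells, and the 3 control tumours (replicates 2, 3 and 4) are named as not receiving it by their labels and as given an IgG2a isotype antibody by the treatment protocol. The series text speaks of cells alive 7 days after treatment, the sample labels of tumour tissue, and the sources used here do not give the strain or age of the mice. The labels do not say that each numbered tumour came from its own animal, so a p-value measures only the spread between these samples. Total RNA was read on 6 Clariom S Mouse arrays, 1 per tumour, and 3 arrays per group limit the precision of every value. In bulk tissue, fewer cells of a type and less RNA per cell cannot be told apart.

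Histones are the proteins around which DNA is wound. The core histones H2A, H2B, H3 and H4 form the nucleosome, and the linker histone H1 binds where DNA enters and leaves it. Replication-dependent histone genes lie in clusters, have no introns and are transcribed in S phase, and their messages end in a stem-loop bound by SLBP in place of a poly(A) tail. Replacement histones, such as H2A.Z and H3.3, are encoded by genes outside these clusters and are mostly made through the whole cell cycle, outside this coupling. The class of each member here was set by its gene symbol alone.

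Promoters of some members are printed here to place the clusters with contrasting values. Of the 81 histone names in the clusters, 69 matched a RefSeq gene with 1 promoter window (RefSeq, build GRCm38.p6). The 250 bases before each start were searched on both strands for 4 motifs: TATAAA (the TATA box), CCAAT (the CCAAT box), the octamer ATTTGCAT and AAACACA (the H1 box); none of these holds another, though the ends of neighbouring motifs can overlap. CCAAT was found in all 16 windows of H2A genes and all 15 of H2B genes, in 8 of 10 H3 windows in 3 of 12 H4 windows and in 7 of 10 replacement windows, against 33.9% of all 32841 windows of the table. The octamer stood in 7 H2A and 6 H2B windows, which is 22% of the 59 replication-dependent windows, and in 1 of 10 replacement windows, against 1.6% of all windows. The H1 box was found in 5 of 6 H1 windows, against 6.25% of all windows, and the H1 window without it was that of Hist1h1a. TATAAA was present in 49.2% of the replication-dependent windows, 1 of 10 replacement windows and 12.4% of all windows. Windows of back-to-back H2A and H2B genes share bases, so that a match can count for both genes. The array's start positions lay 168 to 306 bases apart in 10 such pairs, and these windows are not separate promoters. A match is a description of the letters and not a site of binding.

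The last 150 bases before the start are shown 5′ to 3′ for 7 genes (GRCm38.p6), with the motifs in capitals on whichever strand they lie. Hist1h2bj (chr13:22043048-22043197, plus strand) and Hist1h2bk (chr13:22035671-22035820, plus strand) had the largest differences between groups among replication-dependent histones. Hist1h1d (chr13:23554882-23555031, plus strand) and Hist1h1a (chr13:23763518-23763667, plus strand) are linker histones with differences of opposite sign. Hist1h4k (chr13:21750554-21750703, minus strand) is an H4 gene without overlap between groups, and H3f3a (chr1:180813606-180813755, minus strand) and H3f3b (chr11:116024505-116024654, minus strand) encode the same replacement protein, H3.3.
Hist1h2bj: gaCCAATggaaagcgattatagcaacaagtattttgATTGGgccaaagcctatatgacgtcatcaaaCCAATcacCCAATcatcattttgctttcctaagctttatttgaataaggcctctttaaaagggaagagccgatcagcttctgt
Hist1h2bk: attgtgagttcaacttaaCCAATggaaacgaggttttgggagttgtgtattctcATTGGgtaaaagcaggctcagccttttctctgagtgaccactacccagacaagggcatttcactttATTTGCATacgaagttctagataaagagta
Hist1h1d: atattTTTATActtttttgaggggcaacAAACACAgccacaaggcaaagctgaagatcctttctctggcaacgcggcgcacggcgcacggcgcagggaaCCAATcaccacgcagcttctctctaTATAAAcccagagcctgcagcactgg
Hist1h1a: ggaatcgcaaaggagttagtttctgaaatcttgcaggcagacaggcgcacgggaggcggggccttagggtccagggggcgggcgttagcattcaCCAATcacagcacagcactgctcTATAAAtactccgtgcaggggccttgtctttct
Hist1h4k: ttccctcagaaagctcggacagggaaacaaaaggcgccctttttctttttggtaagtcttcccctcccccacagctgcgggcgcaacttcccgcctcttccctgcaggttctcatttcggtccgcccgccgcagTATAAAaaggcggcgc
H3f3a: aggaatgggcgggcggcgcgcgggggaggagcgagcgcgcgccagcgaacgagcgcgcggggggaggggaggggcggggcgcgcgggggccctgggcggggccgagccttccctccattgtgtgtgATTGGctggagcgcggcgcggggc
H3f3b: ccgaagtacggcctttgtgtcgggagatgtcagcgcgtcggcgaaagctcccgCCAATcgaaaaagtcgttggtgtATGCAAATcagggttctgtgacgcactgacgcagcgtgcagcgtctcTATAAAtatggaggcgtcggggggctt
The H2B windows show CCAAT repeated on both strands. The octamer is close to the start in Hist1h2bk and is not in the Hist1h2bj stretch.

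The array of control replicate 3 was unlike the others over all clusters. Its Pearson correlation with the others, across clusters, was between 0.908 and 0.936, while pairs of the other arrays reached 0.987. Adipocyte markers were highest there, with a mean log2 signal of the 8 markers between 7.79 and 14.67 in control and between 6.34 and 8.68 in the anti-PD-1 group. The mean of the 9 markers of basal squamous epithelium was lowest there. It lay between 9.89 and 13.44 in control and between 13.78 and 15.22 in the anti-PD-1 group. Krt15 and Itga6 were exceptions, at 7.51, 8.19 and 8.40 and at 13.80, 14.25 and 12.76 in control replicates 2, 3 and 4. All of these markers were called expressed in both groups by the authors' deposited table. Differences without this array are therefore given beside those with all 6. Of 22203 named clusters, 1 (0.0045%), not a histone, passed the adjusted threshold of 0.05 by limma with Benjamini-Hochberg adjustment. Leaving control replicate 3 out gave 13 (0.0586%).

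Most histone clusters had higher signals in anti-PD-1 tumours, by amounts that did not pass the adjusted threshold. Of the 78 clusters, 73 had a log2 difference (anti-PD-1 minus control) above 0, against 51.6% of all clusters tested. The median difference was 0.49 for the histones and 0.02 for all clusters. The smallest adjusted p of any histone by limma was 0.500. At unadjusted p under 0.05, 10 histones (12.8%) had higher and 0 had lower signals under anti-PD-1. Of all clusters 9.78% passed this limit, 5.25% with higher and 4.54% with lower signals. The groups did not overlap, with anti-PD-1 higher, for 12 histones, or 15.4%, against 8.89% of all clusters, and for 0 histones with anti-PD-1 lower, against 7.74%. In the table the authors deposited, as many as 10 histone clusters had p under 0.05 and 0 had an FDR under 0.05, with a smallest FDR of 0.509. These clusters share arrays and near-identical sequence, so that their number is not a number of independent results.

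Replication-dependent histones were higher in 63 of 66 clusters, with a median difference of 0.52 on the log2 scale and a range from -0.65 to 1.12. Without control replicate 3 the median was 0.29, and 61 of the 66 differences were above 0, against 52.1% of all clusters. Without control replicate 2 the median was 0.81. The count at unadjusted p under 0.05 was 9 with all arrays (13.6%, against 9.78% of all clusters). These 9 were all higher, where 5.25% of all clusters passed this limit with higher signals. The count of higher clusters was 44 (of all clusters, 8.3%) without control replicate 2, 2 (of all clusters, 4.11%) without control replicate 3 and 3 (of all clusters, 4.59%) without control replicate 4. Leaving out anti-PD-1 replicate 1, 2 or 3 gave 1, 4 and 1, where the shares of all clusters were 2.78%, 4.53% and 2.83%. Clusters with several names did not stand out: all 7 were higher, with a median of 0.50, against 0.53 for the 59 with 1 name. The 52 clusters of the large locus on chromosome 13 had a median of 0.55, and the 10 on chromosome 3 one of 0.36. The 3 on chromosome 11 had 0.64.

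The controls were not alike. A class score was computed for each array, which is the median over clusters of the log2 signal minus the cluster's mean over the 6 arrays. For replication-dependent histones it was 0.29, -0.82 and -0.27 in control replicates 2, 3 and 4, and 0.36, 0.24 and 0.20 in anti-PD-1 replicates 1, 2 and 3. The array of control replicate 2 thus lay among the treated tumours and the other controls below them. Control replicate 3 was the lowest array for 56 of the 66 clusters, or 84.8%, against 28.4% of all clusters. Control replicate 4 was below all anti-PD-1 tumours for 59 clusters (89.4%, against 30.8% of all clusters), as was control replicate 3 (89.4%, against 36.5%). Control replicate 2 was below all of them for 14 clusters (21.2%, against 26.5%). It was above all of them for 22 of the 66, against 5897 of all 22203 clusters. The range between replicates had a median of 1.16 log2 units in control and 0.32 in the anti-PD-1 group. It was wider in control for 58 of the 66 clusters (87.9%), against 64.3% of all clusters.

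**Figure D1:**
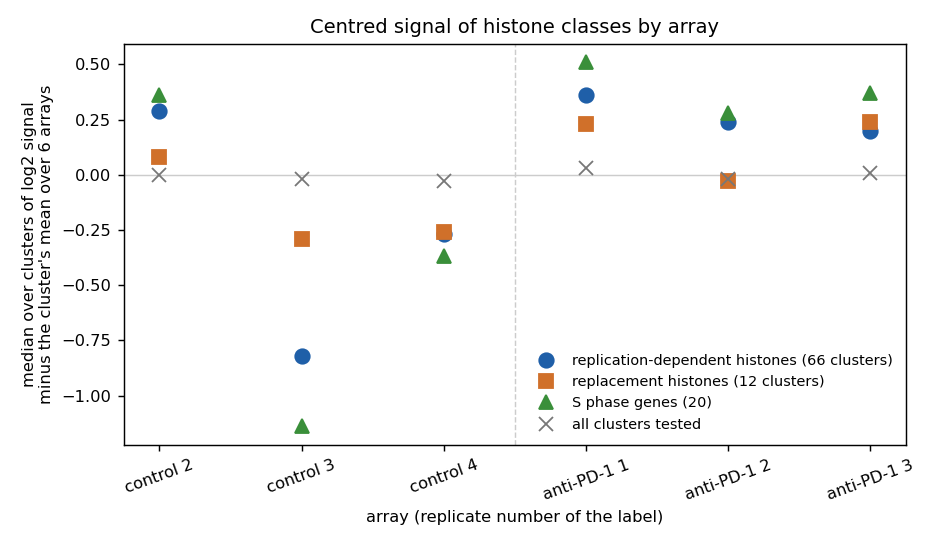
Class score (median over clusters of the log2 signal minus the cluster's mean over 6 arrays, y axis) in each array (x axis) for replication-dependent histones, replacement histones, S phase genes and all clusters tested. Replication-dependent histones and S phase genes had their lowest score in control replicate 3 (-0.82 and -1.14) and similar positive scores in all anti-PD-1 tumours and in control replicate 2.

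Replacement histones were higher in 10 of 12 clusters, with a median difference of 0.26, and 0.22 without control replicate 3. Their scores were 0.08, -0.29 and -0.26 in control and 0.23, -0.03 and 0.24 in anti-PD-1 tumours, so anti-PD-1 replicate 2 lay below control replicate 2. The groups did not overlap for 1 replacement cluster (8.33%) and for 11 replication-dependent ones (16.7%), where all clusters had a share of 8.89%. The medians of the classes differed by 0.26, and by 0.07 without control replicate 3. Per array, the replication-dependent minus the replacement score was 0.21, -0.54 and -0.01 in control and 0.13, 0.27 and -0.04 in anti-PD-1 tumours, with a pooled SD of 0.29 within groups. The groups overlapped in this measure, and the difference between the classes did not exceed the spread between tumours.

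**Figure D2:**
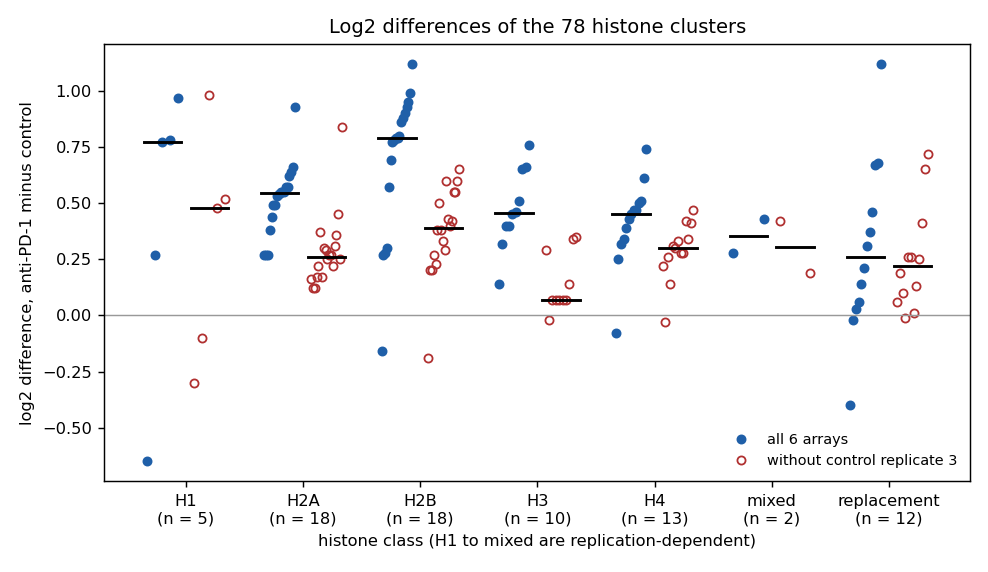
Log2 difference between groups (anti-PD-1 minus control, y axis) of each of the 78 clusters by class (x axis), with all 6 arrays (filled points) and without control replicate 3 (open points); black lines are medians. The H2B median moved from 0.79 to 0.39 and the H3 median from 0.45 to 0.07 without that array, while the replacement median moved from 0.26 to 0.22.

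The linker histones did not share a direction, with 4 of 5 clusters higher, a median of 0.77 and 0.48 without control replicate 3. Hist1h1d (the H1.3 protein) read 10.97, 9.43 and 10.58 in control replicates 2, 3 and 4 and 11.34, 11.32 and 11.22 in anti-PD-1 replicates 1, 2 and 3. All anti-PD-1 tumours lay above all controls. Its log2 difference was 0.97 ± 0.40 (SE; limma, unadjusted p = 0.0462, adjusted p = 0.509) and 0.52 without control replicate 3. Hist1h1c (H1.2) read 8.71, 9.38 and 8.78 in control and 9.83, 9.28 and 10.08 in anti-PD-1 tumours. Here control replicate 3 was the highest control and lay above the lowest anti-PD-1 tumour. Its difference was 0.77 ± 0.30 (SE; limma, unadjusted p = 0.0383, adjusted p = 0.503), and 0.98 without control replicate 3. Hist1h1b (H1.5) had a difference of 0.78 ± 0.35 (SE; limma, adjusted p = 0.519), and 0.48 without control replicate 3, with control replicate 2 at 12.81 between the anti-PD-1 values of 12.75 and 13.03.

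Hist1h1a (H1.1), named after its values were seen, had the lowest difference of all 78 clusters. Its signals were 8.87, 9.59 and 8.23 in control and 8.16, 8.71 and 7.88 in anti-PD-1 tumours. The groups overlapped, and control replicate 3 was the highest array rather than the lowest. The difference was -0.65 ± 0.40 (SE; limma, unadjusted p = 0.148, adjusted p = 0.573) and -0.30 without control replicate 3. Hist1h1t, the testis linker histone, read between 4.16 and 5.50 in all arrays. The cluster of Hist1h2be and Hist1h1e, which names genes of different classes, read 4.02, 4.99 and 5.11 in control and 4.92, 5.15 and 4.90 in anti-PD-1 tumours, and the authors' deposited table calls it expressed in control and not in anti-PD-1 tumours. The other such cluster, of Hist1h2ad, Hist1h3b and Hist1h3d, differed by 0.43 ± 0.30 (SE), and by 0.19 without control replicate 3.

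**Figure D3:**
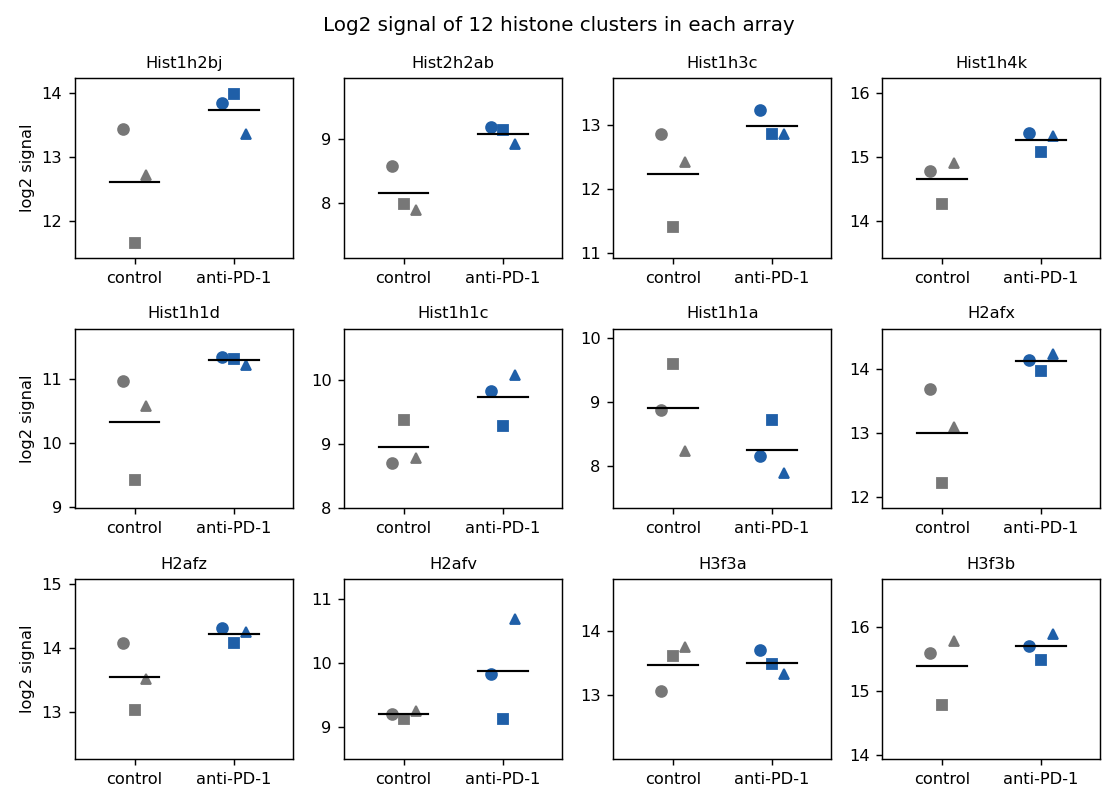
Log2 signal (y axis) of 12 histone clusters in control and anti-PD-1 tumours (x axis); circles, squares and triangles are replicates 2, 3 and 4 of control and 1, 2 and 3 of anti-PD-1, lines are group means, and every panel spans the same number of log2 units. Control replicate 3 (grey square) was the lowest point for Hist1h2bj at 11.67 and for H2afx at 12.21 but the highest for Hist1h1a at 9.59.

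All 18 replication-dependent H2A clusters had a difference above 0, at a median of 0.55 and of 0.26 without control replicate 3. Hist2h2ab, an H2A gene of the smaller cluster on chromosome 3 (mm10, chr3:96219865-96220308), had the smallest p of the 78. It read 8.59, 7.99 and 7.90 in control (8.16 ± 0.38, SD, n = 3) and 9.20, 9.14 and 8.93 in anti-PD-1 tumours (9.09 ± 0.14, SD, n = 3). Every anti-PD-1 tumour was above every control, and control replicate 3 was not the lowest array. The log2 difference was 0.93 ± 0.25 (SE; limma, unadjusted p = 0.00807, adjusted p = 0.500), a ratio of 1.91, and 0.84 without control replicate 3. The range over all leave-one-out fits was 0.80 to 1.15.

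The other H2A clusters had differences between 0.27 and 0.66. Hist1h2an, the H2A cluster with the highest mean signal, read 17.43, 16.32 and 16.79 in control and 17.42, 17.38 and 17.46 in anti-PD-1 tumours, so that control replicate 2 equalled the anti-PD-1 tumours. Its difference was 0.57 ± 0.30 (SE; limma, adjusted p = 0.545) and 0.31 without control replicate 3. The cluster named Hist1h2ao, Hist1h2ap, Hist1h2ai and Hist1h2ah had a difference of 0.55 ± 0.32 (SE), and 0.27 without that array. Hist1h2aa, a testis H2A, read between 8.39 and 8.87 in control and between 8.92 and 9.28 in the anti-PD-1 group, without overlap, with a difference of 0.49 ± 0.22 (SE; limma, unadjusted p = 0.0648, adjusted p = 0.520), and 0.37 without that array. The cluster of Trim17 and Hist3h2a, the only 1 shared with a gene that is no histone, had a difference of 0.64 ± 0.32 (SE), and 0.45 without that array.

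H2B clusters had a median of 0.79, with 17 of 18 above 0, and of 0.39 without control replicate 3. That was the highest class median with all arrays, and without that array the H1 median of 0.48 was higher. Hist1h2bj (mm10, chr13:22043214-22043676), named after its values were seen, read 13.44, 11.67 and 12.73 in control (12.61 ± 0.89, SD, n = 3). It read 13.84, 13.99 and 13.37 in anti-PD-1 tumours (13.73 ± 0.32, SD, n = 3). The groups touched, since control replicate 2 lay above anti-PD-1 replicate 3. Its difference of 1.12 ± 0.46 (SE; limma, unadjusted p = 0.0444, adjusted p = 0.506) was 0.65 without control replicate 3 and 1.53 without control replicate 2. Its neighbour Hist1h2bk, also named after its values were seen, had a difference of 0.99 ± 0.43 (SE; limma, adjusted p = 0.515), and 0.60 without control replicate 3. Hist1h2bn, the H2B cluster with the highest mean signal, differed by 0.79 ± 0.45 (SE; limma, adjusted p = 0.558), and by 0.29 without that array.

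Groups did not overlap for 4 H2B clusters (22.2%), where 8.89% of all clusters were so. Hist1h2bm read 12.94, 11.57 and 12.49 in control and 13.34, 13.48 and 12.97 in anti-PD-1 tumours, with a difference of 0.93 ± 0.38 (SE; limma, unadjusted p = 0.0432, adjusted p = 0.504) and of 0.55 without control replicate 3. Hist1h2br differed by 0.77 ± 0.31 (SE) and Hist1h2bb, named after its values were seen, by 0.86 ± 0.41 (SE). Without that array these were 0.50 and 0.43. The pseudogene Hist3h2bb-ps read between 4.57 and 5.19 in control and between 5.42 and 6.15 in the anti-PD-1 group, a difference of 0.80 ± 0.28 (SE) and of 0.60 without that array. The testis H2B Hist1h2ba differed by 0.27 ± 0.21 (SE), and by 0.20 without that array. Hist3h2ba, between 3.78 and 4.28 on all arrays, was called expressed in neither group.

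All 10 H3 clusters had a difference above 0, the groups overlapped for each of them, and 0 had unadjusted p under 0.05. Their median was 0.45, and 0.07 without control replicate 3. Control replicate 2 was the highest of all 6 arrays for 7 of the 10, and for 10 of 18 H2A, 1 of 18 H2B and 1 of 13 H4 clusters. Over all 22203 clusters it was the highest for 3043. Hist1h3c read 12.86, 11.42 and 12.42 in control and 13.24, 12.87 and 12.86 in anti-PD-1 tumours, a difference of 0.76 ± 0.38 (SE; limma, unadjusted p = 0.0905, adjusted p = 0.540) and of 0.35 without control replicate 3. Hist1h3f differed by 0.66 ± 0.37 (SE; limma, adjusted p = 0.555), and by 0.34 without that array. Hist1h3g had the widest range in control, with 13.40, 11.27 and 12.20 in control and a lowest value of 12.87 in anti-PD-1 tumours. Its control range held all 3 anti-PD-1 values, and the difference of 0.65 ± 0.51 (SE) was 0.14 without that array. The identical signals of Hist2h3c1 and Hist2h3c2, with the highest mean among H3 clusters, differed by 0.40 ± 0.34 (SE), and by 0.07 without it. Hist2h3b, named after its values were seen, differed by 0.32 ± 0.35 (SE) and by -0.02 without control replicate 3. Hist1h3a, between 3.88 and 5.15 on all arrays, was called expressed in neither group.

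H4 clusters were higher in 12 of 13, with a median of 0.45 and 0.30 without control replicate 3. Hist1h4k read 14.78, 14.27 and 14.91 in control and 15.38, 15.07 and 15.33 in anti-PD-1 tumours. No control reached an anti-PD-1 value. Its difference was 0.61 ± 0.24 (SE; limma, unadjusted p = 0.0429, adjusted p = 0.504) and 0.41 without control replicate 3. The cluster of Hist1h4j and Hist1h4m read 15.48, 15.26 and 15.53 in control and 16.11, 15.80 and 15.86 in anti-PD-1 tumours, a difference of 0.50 ± 0.20 (SE; limma, unadjusted p = 0.0442, adjusted p = 0.505) and of 0.42 without that array. Hist1h4f had the largest H4 difference, 0.74 ± 0.33 (SE; limma, unadjusted p = 0.0607, adjusted p = 0.519), which was 0.47 without that array, and control replicate 2 at 14.75 lay above its lowest anti-PD-1 value of 14.63. Hist1h4a and Hist1h4b also did not overlap, which made 4 of 13 (30.8%), against 8.89% of all clusters. Hist4h4, the 1 replication-dependent cluster on chromosome 6, read 6.66, 7.39 and 6.36 in control and 6.46, 7.11 and 6.61 in anti-PD-1 tumours, with a difference of -0.08 that was 0.22 without control replicate 3. Control replicate 4 was below all anti-PD-1 tumours in 13 of 13 H4 clusters.

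Many H2A and H2B genes stand back to back and share the stretch between their starts, so that both genes of a pair can be read against each other. Among 1-name clusters there were 10 such H2A and H2B pairs, with 168 to 306 bases between the array's start positions. The H2B difference exceeded the H2A difference in 7 pairs, equalled it to 2 decimals in 1 and was below it in 2. The median of H2B minus H2A was 0.22, with a range from -0.22 to 0.63. Hist1h2bj differed by 1.12 and its partner Hist1h2ag by 0.49, and Hist1h2bk by 0.99 and its partner Hist1h2ah by 0.62. The testis pair Hist1h2ba and Hist1h2aa ran the other way, with 0.27 and 0.49. Without control replicate 3 the median was 0.10, with 8 pairs above 0, and Hist1h2bj differed by 0.65 and Hist1h2ag by 0.17. An exact permutation test of 3 against 3 arrays cannot give a two-sided p under 0.1, and none was run on the pairs. Probes of different clusters can respond to the same change with different slopes, which was not tested. Median differences also varied with signal, from 0.27 for the 8 replication-dependent clusters with a mean log2 signal under 8 to 0.79 for the 15 between 12 and 14 and 0.47 for the 24 between 14 and 16, the last with 0 H2B clusters. Between 10 and 14 the median was 0.87 for 12 H2B clusters and 0.65 for 12 others.

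**Figure D4:**
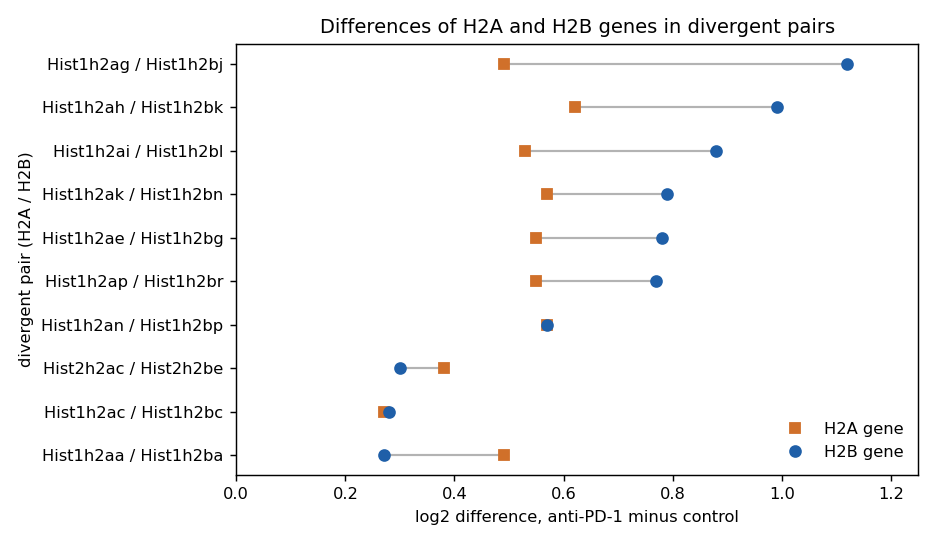
Log2 difference between groups (anti-PD-1 minus control, x axis) of the H2A gene (square) and the H2B gene (circle) in 10 divergent pairs (y axis). The circle lies to the right of the square in 7 pairs, farthest for Hist1h2bj at 1.12 against 0.49 for Hist1h2ag, and to the left for Hist2h2be and Hist1h2ba.

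Among replacement histones H2afx differed most. H2afx encodes H2A.X, the variant phosphorylated around DNA double-strand breaks, and lies on chromosome 9 (mm10, chr9:44334694-44336077). It read 13.69, 12.21 and 13.09 in control (SD 0.74, n = 3) and 14.14, 13.97 and 14.23 in anti-PD-1 tumours (SD 0.13, n = 3). All anti-PD-1 tumours lay above all controls. The difference was 1.12 ± 0.38 (SE; limma, unadjusted p = 0.0222, adjusted p = 0.500), a ratio of 2.17, and 0.72 without control replicate 3. The authors' deposited table gives its fold as -2.14, control over anti-PD-1, with an FDR of 0.509.

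The H2A.Z genes came next. H2afz, which encodes H2A.Z at promoters, read 14.08, 13.02 and 13.51 in control and 14.31, 14.07 and 14.25 in anti-PD-1 tumours, and the groups met only through control replicate 2. Its difference was 0.67 ± 0.30 (SE; limma, unadjusted p = 0.0606, adjusted p = 0.519) and 0.41 without control replicate 3. H2afv, the second H2A.Z gene, read 9.20, 9.13 and 9.25 in control and 9.83, 9.12 and 10.68 in anti-PD-1 tumours. Here the spread lay in the anti-PD-1 group, whose replicate 2 was below all controls. The difference was 0.68 ± 0.39 (SE; limma, adjusted p = 0.558). Leaving out anti-PD-1 replicate 2 gave 1.06, leaving out replicate 3 of that group gave 0.28, and leaving out control replicate 3 gave 0.65.

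The H3.3 genes, which encode 1 protein, had small differences. H3f3a read 13.07, 13.62 and 13.75 in control and 13.71, 13.49 and 13.34 in anti-PD-1 tumours, with a difference of 0.03 ± 0.25 (SE; limma, adjusted p = 0.966) and of 0.10 without control replicate 3. Control replicate 2 was its lowest array, unlike in the replication-dependent class. H3f3b read 15.59, 14.79 and 15.78 in control and 15.71, 15.49 and 15.90 in anti-PD-1 tumours. Control replicate 3 alone lay outside the other 5 arrays, and the difference of 0.31 ± 0.31 (SE) was 0.01 without it.

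The macroH2A genes differed in sign. H2afy (macroH2A1) read 13.69, 12.88 and 13.37 in control and 13.69, 13.85 and 13.79 in anti-PD-1 tumours, a difference of 0.46 ± 0.26 (SE; limma, adjusted p = 0.555) and of 0.25 without control replicate 3. H2afy2 (macroH2A2) read 6.90, 8.24 and 6.83 in control and 6.79, 6.96 and 7.02 in anti-PD-1 tumours. Its difference of -0.40 ± 0.40 (SE) rested on control replicate 3 and was 0.06 without it. H2afj (H2A.J) differed by 0.37 ± 0.30 (SE) and H2afy3, a transcribed pseudogene in RefSeq, by 0.21 ± 0.21 (SE). These were 0.13 and 0.26 without that array. The testis variants H2afb1, H2afb2 and H2afb3 differed by -0.02, 0.14 and 0.06, and by 0.19, 0.26 and -0.01 without it. Testis germ cell markers had a mean log2 signal between 4.12 and 4.36 on all arrays. Without the testis variants the replacement median was 0.37 over 9 clusters.

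Histone genes whose symbols do not begin with these prefixes were read beside them. H1f0 encodes H1.0, the replacement linker histone, which accumulates in differentiated and resting cells. It read 12.05, 11.08 and 11.55 in control (11.56 ± 0.49, SD, n = 3) and 12.70, 12.89 and 12.92 in anti-PD-1 tumours (12.84 ± 0.12, SD, n = 3). Every anti-PD-1 tumour was above every control. The difference was 1.28 ± 0.28 (SE; limma, unadjusted p = 0.003, adjusted p = 0.500) and 1.04 without control replicate 3, larger than that of any of the 78 clusters. Cenpa, the H3 variant of centromeres, read 12.03, 8.79 and 10.20 in control and 11.89, 11.78 and 11.88 in anti-PD-1 tumours, overlapping through control replicate 2. Its difference was 1.51 ± 0.74 (SE; limma, adjusted p = 0.535) and 0.73 without control replicate 3. Of the 7 genes of this list, 3 were higher and 4 lower.

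Factors that make, process and place histones were counted as whole lists, with 0 members past the adjusted threshold. Of 15 genes of histone mRNA synthesis and 3′ end processing, 9 were higher, with a median difference of 0.10 and -0.02 without control replicate 3, and 0 had unadjusted p under 0.05. Slbp, which binds the stem-loop, read 11.38, 10.91 and 11.15 in control and 11.37, 10.85 and 11.42 in anti-PD-1 tumours, a difference of 0.07 ± 0.25 (SE) and of -0.05 without control replicate 3. Npat, the coactivator of histone genes, read 11.25, 11.26 and 11.26 in control and 10.98, 11.62 and 11.51 in anti-PD-1 tumours. Slbp had the order of controls seen for the replication-dependent histones, but its lowest array was anti-PD-1 replicate 2. Npat was level in control and did not have that order.

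All 13 chaperones of replication-coupled deposition were higher, with a median of 0.34 and 0.27 without control replicate 3. Only 1 of them had unadjusted p under 0.05 (7.69%, against 9.78% of all clusters, 5.25% with higher signals). The groups did not overlap, with anti-PD-1 higher, for 2 of the 13 (15.4%, against 8.89% of all clusters). Nasp, a chaperone of H3, H4 and linker histones, read 10.87, 10.30 and 10.49 in control and 11.54, 11.62 and 11.79 in anti-PD-1 tumours. No values overlapped. Its difference was 1.10 ± 0.23 (SE; limma, unadjusted p = 0.00204, adjusted p = 0.500) and 0.97 without control replicate 3. The CAF-1 subunits Chaf1a and Chaf1b differed by 0.79 ± 0.35 and 0.73 ± 0.35 (SE), and by 0.45 and 0.59 without that array. Of the 13 chaperones and remodellers of variants, 6 were higher and 7 lower, with a median of -0.03 and -0.02 without that array. The groups did not overlap for 4 of them, 2 higher (15.4%, against 8.89% of all clusters) and 2 lower (against 7.74%). Anp32e, which removes H2A.Z, differed by 0.62 ± 0.26 (SE; limma, unadjusted p = 0.0494, adjusted p = 0.509), and Vps72, a subunit of the complexes that insert it, by 0.52 ± 0.26 (SE), the higher pair without overlap. Without control replicate 3 these were 0.46 and 0.43. Hira, which deposits H3.3, differed by 0.14 ± 0.22 (SE), and Daxx and Atrx, its other chaperone pair, by 0.63 ± 0.37 and -0.19 ± 0.19 (SE). Without that array these were 0.03, 0.23 and -0.22. Atrx and Ep400, a remodeller named after its values were seen, were the pair with every anti-PD-1 value below every control.

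S phase genes had the controls in the same order of array scores as the replication-dependent histones. Their score was 0.36, -1.14 and -0.37 in control and 0.51, 0.28 and 0.37 in anti-PD-1 tumours, so that control replicate 2 again lay among the anti-PD-1 tumours. Of 20 genes 19 were higher, and 7 had unadjusted p under 0.05, all higher (35%, against 5.25% of all clusters). The groups did not overlap for 9, with anti-PD-1 higher (45%, against 8.89%). Their median difference was 0.78. Without control replicate 3 it was 0.48, and 2 genes had unadjusted p under 0.05 with higher signals, where 4.11% of all clusters did. Cdt1, which licenses origins, differed by 1.05 ± 0.33 (SE; limma, unadjusted p = 0.0152, adjusted p = 0.500), Prim1, a primase subunit, by 0.79 ± 0.27 (SE), and E2f1, a transcription factor of S phase entry, by 1.16 ± 0.41 (SE). These were 0.74, 0.68 and 0.87 without that array. Mki67, a proliferation marker, read 15.44, 13.87 and 14.44 in control and 15.09, 15.66 and 14.87 in anti-PD-1 tumours, a difference of 0.62 ± 0.43 (SE) and of 0.27 without control replicate 3.

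Tissue markers also differed between the arrays, though not all in the order of the histones. The basal squamous score was 0.60, -4.24 and -1.48 in control and 1.16, 2.25 and 0.67 in anti-PD-1 tumours, and the adipocyte score was 0.99, 5.28 and -1.86 in control and -1.03, -0.83 and -2.76 in anti-PD-1 tumours. All 9 squamous markers had a difference above 0 and all 8 adipocyte markers one below 0. Control replicate 3 held both the lowest squamous and histone scores and the highest adipocyte score, while control replicate 4, also low in histones, had an adipocyte score within the anti-PD-1 range. The part of the cell makeup of each tumour in the histone differences was not tested.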

How the data were processed

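Total RNA of 6 tumours was read on Clariom S Mouse arrays from 250 ng of RNA per sample, per the labels' protocols. The authors deposited 1 log2 signal per transcript cluster and array, made with SST-RMA on the annotation of build mm10, per the file headers, and 0 values differed between both deposited tables. Per the file headers, the authors added group averages in log2, a signed fold change (a score, negative where control is lower), a p-value with FDR and a call of expression per group. The Transcriptome Analysis Console is named in the submitters' processing notes, without a version. No scanner files were used here.

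Samples were grouped by their treatment label and columns assigned by title. All 22203 clusters with a gene name entered a two-sided test with limma (version 3.58.1, R 4.3.3; lmFit, eBayes). P-values were adjusted by Benjamini-Hochberg over all clusters at a threshold of 0.05, with no filter on dim signals. Differences are anti-PD-1 minus control, opposite to the sign of the deposited fold. The fit was tested on simulated data. Errors marked SE come from the fit and those marked SD from the arrays of a group. The members and lists were chosen with earlier results of these data known.

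Named members were all replacement histones, in each replication-dependent class the 3 clusters with the smallest p and those with the highest and lowest mean signal, clusters with several names, testis histones and up to 4 genes per related list by smallest p. Hist1h1a, Hist1h2bj, Hist1h2bk, Hist1h2bb, Hist2h3b, Hist1h4b, Hist2h2be, Hist1h2ag and Hist1h2ah were named besides, after their values were seen. So were Slbp, Npat, Hira, Atrx, Ep400 and the markers Krt15, Itga6, Cd3e, Cd2, Adgre1, Csn2 and Lalba. The alternatives were quantile normalization, median centring, filters on the clusters tested, a robust trended prior and array weights. Further alternatives were the replicate number as a block and leaving out each array. Chosen after seeing the data were counting identical signals once and leaving out testis histones and the pseudogene symbol Hist3h2bb-ps. Clusters that RefSeq marks as transcribed pseudogenes under other symbols, such as H2afy3, stayed in. Marker and gene lists matched in full except lymphocytes, with 7 of 8. Motifs were searched in RefSeq promoter windows with Python 3.11.15.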

Additional observations from a re-analysis of the deposited data

How the results depend on the processing

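Over the fits that left out 1 array, the count of replication-dependent histones at unadjusted p under 0.05 ran from 1 to 44 around 9, that of replacement histones from 0 to 3 around 1, that of all clusters from 1117 to 3332 around 2172, and the count past the adjusted threshold from 0 to 13 around 1. With quantile normalization the replication-dependent count was 4, where that of all clusters was 2116. With array weights the replacement count was 2, where that of all clusters was 2533. The count past the adjusted threshold was 0 with quantile normalization and 0 with median centring. The medians of both classes, and their difference, stayed above 0 under every alternative run. With the replicate number as a block, the counts at unadjusted p under 0.05 were 737 for all clusters, 0 for replication-dependent and 0 for replacement histones, and 0 clusters passed the adjusted threshold. That fit left 1 residual degree of freedom. The numbers 2 and 3 occur in both groups, and deviations from the group means correlated at -0.20 and -0.19 between same-numbered tumours. Pairs with different numbers ran from -0.06 to 0.25. These correlations cannot tell whether same-numbered tumours shared a day or batch, which the labels do not give and which was not tested.

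Of 69 named clusters tried, 57 kept their direction under every alternative and 0 passed the adjusted threshold in any. The replicate block turned H2afb2 to -0.20, H2afb3 to -0.08, Hist1h3a to -0.23 and Slbp to -0.01. Quantile normalization turned H3f3a to -0.07 and Slbp to -0.01, and array weights turned H2afb1 to 0.15 and Hist4h4 to 0.08. Without 1 array at a time, log2 differences ran from -0.15 to 0.19 for H2afb1, -0.07 to 0.28 for H2afb2, -0.07 to 0.26 for H2afb3, -0.65 to 0.06 for H2afy2, -0.17 to 0.17 for H3f3a, -0.10 to 0.57 for Hist1h1t, -0.25 to 0.39 for Hist1h3a, -0.02 to 0.65 for Hist2h3b and -0.30 to 0.22 for Hist4h4. They ran from -0.06 to 0.48 for the cluster of Hist1h2be and Hist1h1e, -0.05 to 0.25 for Slbp and -0.01 to 0.31 for Npat. The cause of these turns was not tested. With identical signals counted once, the replication-dependent median was 0.54.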

Other observations

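Macrophage and lymphocyte markers did not follow the array order of the histones. The macrophage score was 0.23, -0.58 and 0.74 in control and 0.34, -0.38 and -0.15 in anti-PD-1 tumours, and the lymphocyte score was -0.06, 0.28 and 0.28 in control and 0.20, -0.28 and -0.31. Of 7 macrophage markers 5 were lower under anti-PD-1, at a median difference of -0.34. Without control replicate 3 all 7 were lower, with a median of -0.72. Adgre1 (F4/80, a macrophage surface receptor) read 10.70, 10.69 and 11.81 in control and 10.34, 9.97 and 9.30 in anti-PD-1 tumours, without overlap. Its log2 difference was -1.20 ± 0.41 (SE; limma, unadjusted p = 0.0228, adjusted p = 0.500), and -1.39 without that array. Of 7 lymphocyte markers measured 3 were higher and 4 lower, at a median difference of -0.27. Without control replicate 3 again 3 of the 7 were higher, with a median of -0.12. The T cell markers Cd3e and Cd2 differed by -0.62 and -0.65 with all arrays and by -1.31 and -1.24 without that array. The list of 6 milk protein genes scored 2.55 and 3.53 in control replicates 2 and 3, against -1.67 in control replicate 4 and -1.48 to -1.10 in anti-PD-1 tumours. This rested on its caseins, of which Csn2 read 13.68 and 16.21 in that pair and between 5.13 and 5.85 elsewhere, while Lalba (alpha-lactalbumin) read between 3.45 and 4.02 on all arrays. Replication-dependent histone scores of that pair of arrays were the highest and the lowest of the controls, at 0.29 and -0.82. Skeletal muscle markers scored highest in control replicate 3, at 2.29, and lowest in anti-PD-1 replicate 3, at -2.71, and the replication-dependent histone score of the latter was 0.20.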
